A study of Mus musculus with 8 samples.

Results

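The regions described here are the ATAC-seq peaks of bone marrow-derived macrophages (BMDMs) that the authors found at vehicle (Veh) and after Kdo2 lipid A (KLA), but not after KLA in the presence of RGFP966. They were taken from the merged table of wild-type (WT) peaks, in which every peak carries the names of the condition sets it came from. The peaks were chosen by the authors' peak calls, and a peak was taken if its name held the Veh and KLA sets and not the RGFP966 + KLA set. This gave 292 of 9698 WT peaks. The Veh set held 4743 peaks, the KLA set 5092 and the RGFP966 + KLA set 7869, so the condition without these 292 peaks had the largest set. The calls of all 3 conditions took part in the choice, and the tags of the 6 WT libraries at these peaks are therefore given as a description.

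ATAC-seq measures open chromatin through a transposase that inserts sequencing adapters into accessible DNA. The WT groups were BMDMs of the genotype Wild type, from C57BL/6 mice by the methods, at Veh for 6 h, with KLA for 6 h, and with RGFP966 + KLA for 6 h, with 2 libraries each. KLA is an agonist of TLR4, and RGFP966 is an inhibitor of the histone deacetylase HDAC3 that was added before KLA. The sample titles name RGFP966 for the third pair, whereas its treatment entry names KLA only, and the grouping follows the titles. A second table of 24867 peaks held 2 Veh libraries of BMDMs with the genotype NCoR1 flox/flox (NCoR f/f), which carry the floxed allele without Cre and serve as wild type in the study, at the same 6 h. The marrow came from young adult mice by the methods. Whether the 2 libraries of a group came from separate mice or cultures is not stated, so the spread between them may be technical.

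Accessible sites in macrophages fall into promoters, most of which sit in CpG-rich DNA and stay open in many cell types, and distal elements, which are opened by lineage factors such as PU.1 and C/EBP together with AP-1 and RUNX proteins. TLR4 signaling activates NF-kB, AP-1 and IRF proteins and, through interferon, STAT proteins. HDAC3 works in complexes with the corepressor NCoR (Ncor1), where it removes acetyl groups from histones and other proteins.

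The sequences of 7 peaks show the kinds of region in the group. Each is the 200 bp at the center of the peak on the plus strand of mm10, in lower case, with capitals for matches to the motifs listed further on other than CCAAT and GGGCGG. The first 3 had the lowest fitted ratio of RGFP966 + KLA to KLA among the 252 peaks with a mean of at least 12 tags. They are the promoter of Med14, a subunit of Mediator (24 bp from the transcription start site, TSS), an intergenic site assigned to Tnfsf18, the ligand of the receptor GITR (12262 bp upstream), and intron 3 of Rapgef5, an exchange factor for Rap GTPases (44200 bp downstream of the TSS).
Med14, chrX:12761850-12762049: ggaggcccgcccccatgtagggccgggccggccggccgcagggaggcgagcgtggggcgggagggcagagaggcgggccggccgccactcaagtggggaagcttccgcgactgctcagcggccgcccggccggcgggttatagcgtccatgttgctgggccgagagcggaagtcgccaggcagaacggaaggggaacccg
Tnfsf18, chr1:161482296-161482495: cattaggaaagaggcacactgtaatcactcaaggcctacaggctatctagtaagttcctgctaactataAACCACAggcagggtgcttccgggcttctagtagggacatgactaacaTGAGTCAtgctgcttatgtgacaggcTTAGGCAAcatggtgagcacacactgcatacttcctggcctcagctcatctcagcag
Rapgef5, chr12:117560580-117560779: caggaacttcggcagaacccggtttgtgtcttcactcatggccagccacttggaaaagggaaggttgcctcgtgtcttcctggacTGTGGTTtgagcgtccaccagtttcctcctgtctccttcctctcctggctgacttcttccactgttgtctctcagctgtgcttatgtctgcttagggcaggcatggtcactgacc
The next pair had the highest mean level over the 6 WT libraries. The first is annotated as the satellite repeat GSAT_MM and was assigned to Gm5458, and the second is the promoter of Cdca2, which recruits protein phosphatase 1 to chromatin (85 bp upstream).
Gm5458, chr14:19415691-19415890: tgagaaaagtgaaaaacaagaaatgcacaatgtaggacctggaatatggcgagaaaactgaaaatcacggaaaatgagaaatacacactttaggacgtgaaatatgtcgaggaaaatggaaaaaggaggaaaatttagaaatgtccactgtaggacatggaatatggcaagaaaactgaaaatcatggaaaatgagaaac
Cdca2, chr14:67715827-67716026: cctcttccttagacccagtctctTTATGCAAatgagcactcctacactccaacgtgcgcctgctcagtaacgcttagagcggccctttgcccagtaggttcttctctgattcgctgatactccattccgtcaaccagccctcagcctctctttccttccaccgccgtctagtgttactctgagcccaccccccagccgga
The last pair belongs to genes of the lists described further on. They are intron 1 of Nr1d1, which encodes the NCoR-binding repressor REV-ERBα (1522 bp downstream), and the promoter of Stat2 (54 bp upstream).
Nr1d1, chr11:98773756-98773955: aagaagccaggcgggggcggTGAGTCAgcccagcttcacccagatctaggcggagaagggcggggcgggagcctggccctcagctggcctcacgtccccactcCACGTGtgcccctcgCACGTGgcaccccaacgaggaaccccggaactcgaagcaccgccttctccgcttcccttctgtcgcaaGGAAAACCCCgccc
Stat2, chr10:128270345-128270544: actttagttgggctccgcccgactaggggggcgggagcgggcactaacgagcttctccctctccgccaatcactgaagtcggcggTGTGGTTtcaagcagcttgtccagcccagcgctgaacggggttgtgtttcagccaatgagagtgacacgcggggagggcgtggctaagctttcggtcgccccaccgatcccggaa
In these letters, the Tnfsf18 site held matches to the RUNX, AP-1 and C/EBP motifs, and Nr1d1 held AP-1, NF-kB and 2 E-box matches. Med14 and the satellite held none of the capitalised motifs.

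The WT libraries held 116733 to 202523 tags in peaks, between 1.40 and 2.06% of their tags, and the median WT peak had 10 to 17 tags in a library. Among 10 macrophage marker genes, 5 had at least 1 WT peak, and none of the T cell, B cell, neutrophil, fibroblast, erythroid or endothelial markers had one, although both dendritic cell markers (Flt3 and Zbtb46) did. The summed level of the dendritic cell marker peaks, in tags per 1000000 tags in peaks, was 240.4 and 165 at Veh, 107 and 137 with KLA, and 79.0 and 66.9 with RGFP966 + KLA, from 13 to 31 tags a library. That of the macrophage marker peaks was 667 and 661, then 588 and 411, then 622 and 530.4. The dendritic cell marker peaks were thus in the same order as the 292 peaks described next, and their part in that result was not tested. No marker gene was assigned to one of the 292 peaks. At the median peak of the group, 15 and 13 tags were counted at Veh, 19 and 12 with KLA, and 14 and 13 with RGFP966 + KLA. The raw tags were thus alike in number, while both RGFP966 + KLA libraries held more tags in peaks than the other 4. In such bulk libraries, a site open in fewer cells and a site less open in each cell cannot be told apart.

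Scaled to tags per 1000000 tags in peaks (normalised tags), the median level was 116 and 107 at Veh, 102 and 103 with KLA, and 69.1 and 66.9 with RGFP966 + KLA. The medians of both RGFP966 + KLA libraries thus lay below those of the other 4. The 2753 peaks found in all 3 sets had medians of 155 and 149, 144 and 146, and 133 and 134 in the same order. The 292 peaks took 3.77 and 3.73% of the tags in peaks at Veh, 3.29 and 3.51% with KLA, and 2.42 and 2.41% with RGFP966 + KLA. None of them was at 0 in any library. The lowest value was 3 tags, at the Med14 promoter in 1 RGFP966 + KLA library (10 in the other) and at a peak assigned to Pigyl, with 3 and 20 tags, and Pigyl was chosen after its values were seen.

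**Figure D1:**
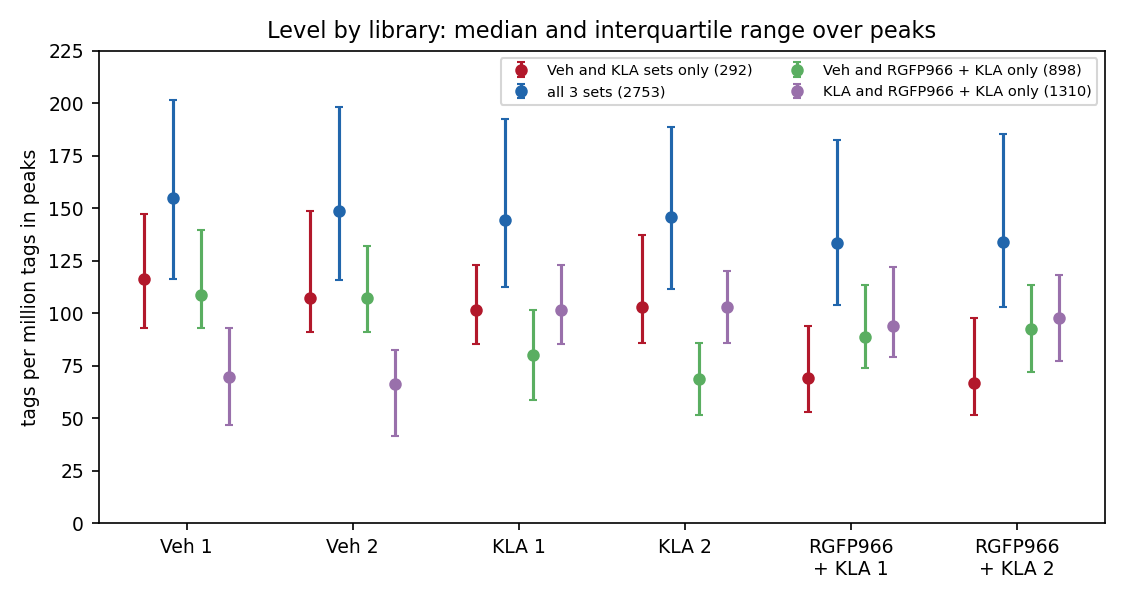
Normalised tags (tags per 1000000 tags in peaks) (y axis, linear) in each of the 6 WT libraries (x axis). Points are medians over the peaks of a class and bars run from the 25th to the 75th percentile. The 292 peaks of the Veh and KLA sets sit at medians of 102 to 116 in the Veh and KLA libraries and at 66.9 and 69.1 with RGFP966 + KLA. The 2 other classes found in 2 of 3 sets are lowest in the condition whose set they miss.

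The same shape appeared in the 2 other classes that were found in 2 of the 3 sets. The mean level in the missing condition had a median log2 ratio of -0.64 to the mean of the other conditions at the 292 peaks, where it was lower at 279 (95.5%). Peaks missing from the KLA set only had a ratio of -0.45, with 91.0% of 898 lower. Peaks missing from the Veh set only had a ratio of -0.59, with 89.1% of 1310 lower. The lower level in the condition left out follows from the way that each of the classes was formed.

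Against KLA, the fitted log2 fold change with RGFP966 + KLA at the 292 peaks ran from -1.87 to 0.53, with a median of -0.56, against 0.03 over all 9698 peaks. It was below 0 at 269 peaks (92.1%) and more than 2-fold lower at 27 (9.25%, beside 2.61% of all WT peaks). With edgeR at an adjusted p-value under 0.05 and over 2-fold, 1 of the 292 peaks was lost and 0 were gained, beside 0.103% lost and 0.237% gained among all WT peaks. At an unadjusted p under 0.05 there were 87 (29.8%), all lower, beside 5.93% of all WT peaks that passed and were lower. DESeq2 called 0, with 11 peaks at an unadjusted p under 0.05 under its own size factors and 9 under size factors from the tags in peaks. The share of all WT peaks under DESeq2 is not given, so nothing about the 292 is read from these counts. Both RGFP966 + KLA libraries lay below both KLA libraries at 170 of the 292 peaks (20.1% of all WT peaks did) and above both at 5 (25.7%). The rule asked for peaks missing from the RGFP966 + KLA set, so low values there belong to the choice. All WT peaks also include 2908 found in the RGFP966 + KLA set only, which were chosen the other way. The peaks in all 3 sets had a median log2 fold change of -0.09. Nothing is read from these counts.

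The peak called was the Med14 promoter. Its levels were 77.6 and 99.1 normalised tags at Veh, 134 and 103 with KLA, and 49.4 and 15.4 with RGFP966 + KLA, where the lower value rests on 3 tags. The log2 fold change was -1.87 ± 0.43 (SE, n = 2 libraries per condition). Both RGFP966 + KLA values lay below the other 4, from 10 and 3 tags. The call was lost without either KLA or either RGFP966 + KLA library, with log2 fold changes from -2.91 to -1.29, and the adjusted p of edgeR then ran from 0.0714 to 0.342.

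Next in order was the intergenic site assigned to Tnfsf18, with 147 and 107 normalised tags at Veh, 155 and 120 with KLA, and 64.2 and 36.0 with RGFP966 + KLA. The Rapgef5 intron had 240.4 and 264, then 150 and 128, then 59.3 and 51.5. At Rapgef5 the KLA values already lay below the Veh values, and the RGFP966 + KLA values lay lower again without overlap, whereas at Tnfsf18 the Veh and KLA values overlapped. The promoter of Mylip, which encodes the ubiquitin ligase IDOL that degrades the LDL receptor, had 132 and 124, then 112 and 120, then 34.6 and 56.6. A peak assigned to Gsg1, which lies in exon 10 of Fam234b, and an intergenic peak assigned to Rassf3, a Ras association domain protein, completed the 6 lowest, with log2 fold changes of -1.27 ± 0.37 and -1.26 ± 0.38 (SE). At both, the RGFP966 + KLA libraries lay below the other 4.

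Peaks at the other end had more tags with RGFP966 + KLA than with KLA although they were missing from its set. The promoter of B3glct, a glucosyltransferase, had 18 and 22 tags at Veh, 27 and 21 with KLA, and 47 and 44 with RGFP966 + KLA, a log2 fold change of 0.53 ± 0.27 against KLA (SE). Intron 1 of Tmbim1 had 31 and 31, then 55 and 42, then 75 and 76. In normalised tags, both RGFP966 + KLA libraries were above the other 4 at these 2 of the 292 peaks, and at 13.8% of all WT peaks. An intergenic peak assigned to Slc38a2, an amino acid transporter, and the promoters of Ift140, a part of the intraflagellar transport machinery, and of Tob1, an antiproliferative protein, were also above both KLA libraries. The RGFP966 + KLA values lay below both Veh values at Slc38a2 and Tob1 and between them at Ift140. Tob1 was chosen after its values were seen. A peak assigned to Nron, in an intron of Mvb12b, had a log2 fold change of 0.34 ± 0.38 (SE) against KLA, with 13 and 25 tags under RGFP966 + KLA and 14 and 9 under KLA, which overlap as normalised tags.

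**Figure D2:**
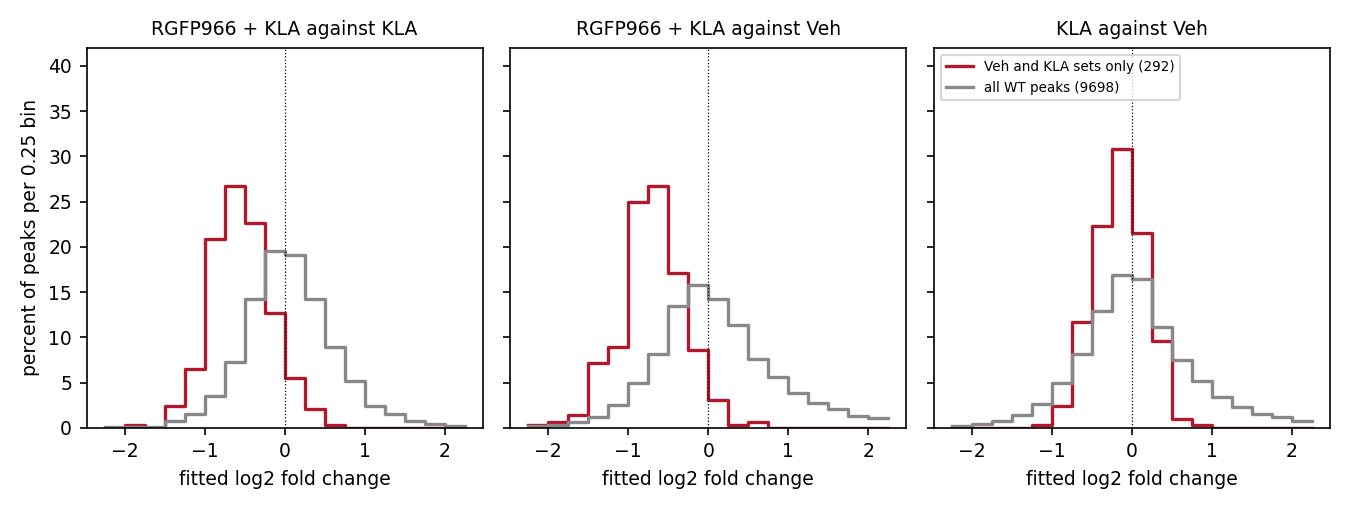
Fitted log2 fold changes (x axis) of the 292 peaks and of all 9698 WT peaks for each comparison, as the percent of peaks in bins of 0.25 (y axis), with the outermost values not drawn. The 292 peaks are shifted to medians of -0.56 and -0.70 in the comparisons with RGFP966 + KLA and have a median of -0.16 for KLA against Veh, and the median of all peaks lies between 0.02 and 0.04.

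Against Veh, the median log2 fold change with RGFP966 + KLA was -0.70, from -2.17 to 0.62, beside 0.04 over all peaks. It was below 0 at 280 peaks and more than 2-fold lower at 54 (18.5%, beside 5.19% of all WT peaks). By edgeR, 32 of the 292 peaks (11.0%) were lost and 0 were gained, beside 2.99% lost and 6.89% gained among all WT peaks. DESeq2 called 0 with either choice of size factors, with 33 and 28 peaks at an unadjusted p under 0.05, and edgeR called 5 without Veh replicate 1, 14 without Veh replicate 2, 19 without either RGFP966 + KLA replicate and 8 with library sizes from all tags. The levels of both RGFP966 + KLA libraries lay below those of all 4 Veh and KLA libraries at 144 of the 292 peaks (49.3%), against 8.85% of all WT peaks. Shares of all WT peaks are given for the main fit only. A drop in calls under another fit may therefore hold for all peaks alike. Since the rule asked for a peak in both other sets and none here, nothing is read from these counts.

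Of the 33 peaks called in at least 1 comparison, 17 were at promoters and 16 were distal, and both RGFP966 + KLA libraries lay below the other 4 at 26. The rule and the calls used these same libraries, so such an order largely follows from the choice. The Rapgef5 intron had the largest difference, -2.17 ± 0.33 (log2, SE) against Veh. An intergenic site assigned to BC005537 followed with 178 and 173 normalised tags at Veh, 80.2 and 137 with KLA, and 64.2 and 25.7 with RGFP966 + KLA. The promoter of Gpi1, the glycolytic enzyme glucose-6-phosphate isomerase, had 178 and 116, then 74.9 and 94.2, then 59.3 and 20.6. At both sites the Veh values were highest and the RGFP966 + KLA values lowest, with no overlap between the groups.

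A peak assigned to Swap70, an actin-binding signaling protein, lies in intron 37 of Sbf2, 91925 bp downstream of the Swap70 TSS. It had 217 and 140 normalised tags at Veh, 118 and 128 with KLA, and 49.4 and 66.9 with RGFP966 + KLA. Intron 1 of Eif4ebp1, which restrains translation by binding eIF4E, had 264 and 173, then 150 and 137, then 93.8 and 56.6. The promoter of Usp20, a deubiquitinase, had 217 and 198, then 166 and 137, then 54.3 and 103. The 3 sites share the order Veh, KLA and RGFP966 + KLA without overlap between conditions. The promoter of Mllt3, a subunit of the super elongation complex, had 155 and 149, then 96.2 and 103, then 64.2 and 51.5, in the same order. Intron peaks of Sh3bgr and D5Ertd615e and the peak assigned to Gsg1 were also among the 12 with the smallest p, with log2 fold changes of -1.59, -1.49 and -1.48 against Veh. The other lost peaks, which include the promoters of the polymerase α subunit Pola1, the cullin-RING ligase subunit Rbx1 and the tyrosine phosphatase Ptpn1 (named after their values were seen), had log2 fold changes of -1.50 to -1.06.

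**Figure D3:**
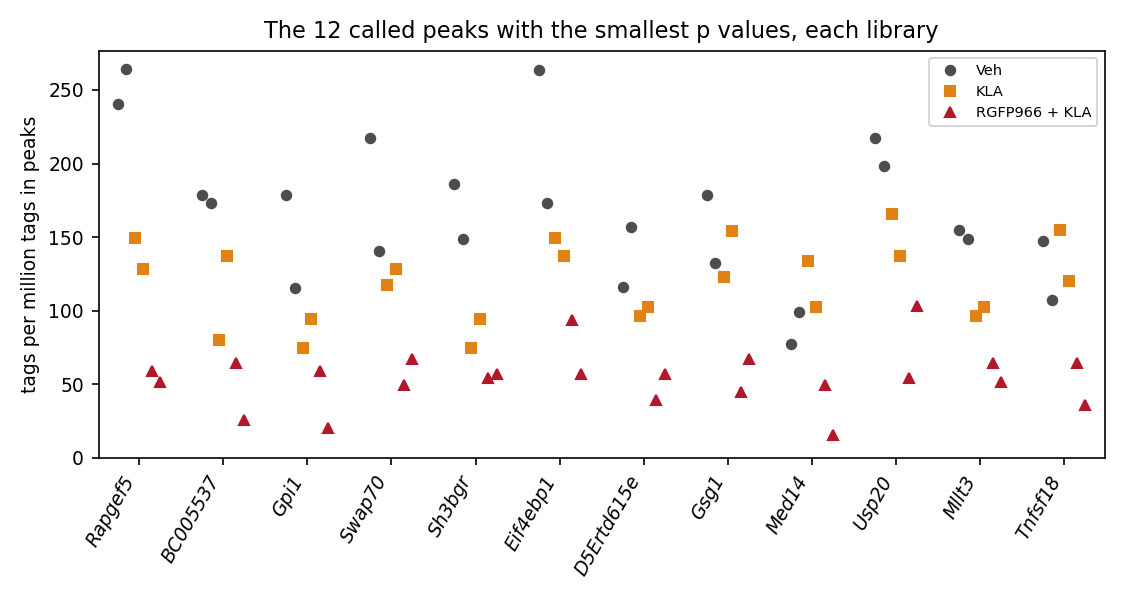
Normalised tags (tags per 1000000 tags in peaks) (y axis, linear) in each of the 6 WT libraries for the 12 called peaks with the smallest p-values, labelled by assigned gene and ordered by the log2 fold change of RGFP966 + KLA against Veh. Each symbol is 1 library. Both RGFP966 + KLA libraries lie below the other 4 at every one of the 12 peaks, from 15.4 at Med14 to 103 at Usp20. The 12 peaks were picked by p-values from these same libraries, so this order largely follows from the choice.

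Between KLA and Veh, most of these peaks differed by less than 0.5 on the log2 scale. The median log2 fold change of KLA against Veh was -0.16, from -1.02 to 0.89, beside 0.02 over all peaks, and 246 of the 292 values lay within 0.5 of 0. By edgeR 0 were lost and 0 were gained, beside 1.73% and 3.3% of all WT peaks. At an unadjusted p under 0.05 there were 10 with edgeR (3.42%, beside 19.5% of all WT peaks) and 0 with DESeq2, which called 0. The share of all WT peaks under DESeq2 is not given, so nothing about the 292 is read from its counts. Both KLA libraries lay below both Veh libraries at 81 peaks (22.6% of all WT peaks did) and above both at 29 (25.3%). Presence in both the Veh and the KLA set was part of the rule, so values near 0 belong to the choice.

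The lowest values for KLA against Veh were at the Sh3bgr intron, at the promoter of the zinc finger gene Zfp719 and in the 5′ UTR of Mfsd5, and the highest were at the promoter of Mon2, a Golgi trafficking protein, at a site upstream of Actb (β-actin) and in the 5′ UTR of 2810474O19Rik. The Mon2 promoter had 7 and 12 tags at Veh, 28 and 15 with KLA, and 12 and 18 with RGFP966 + KLA. The Actb site had 14 and 8, then 29 and 16, then 31 and 10. At the Actb site the RGFP966 + KLA libraries differed from each other more than KLA differed from Veh.

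The spread between the paired libraries differed between conditions at these peaks. The chi-square value per peak of the 2 libraries of a condition, which is near 1 where they differ by counting error only, over the 292 peaks was 0.791 at Veh, 0.71 under KLA and 1.99 under RGFP966 + KLA. It was 1.12, 1.11 and 0.965 over the peaks in all 3 sets. In each condition it was lower over the peaks of its own set (0.938, 0.913 and 0.822) than over the peaks outside its set (1.20, 1.27 and 1.48). A peak entered a set by the reproducibility of its rank between 2 libraries (irreproducible discovery rate, IDR), so the spread itself took part in the choice. The intron 1 peak of Il4ra, with 6 and 22 tags in the RGFP966 + KLA libraries against 18 and 15 with KLA, shows this spread. The model shares 1 estimate of the spread over the conditions, and its p-values at these peaks rest on that estimate. Its common dispersion, the spread beyond counting error, was only 0.0052, whereas the RGFP966 + KLA pair spread more at these peaks. The p-values of the comparisons with RGFP966 + KLA may therefore be too small there.

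Absence from the RGFP966 + KLA set did not mean a low level at every peak. The lowest peak of the class found in all 3 sets had 49.4 and 51.5 normalised tags in the RGFP966 + KLA libraries, which is 10 tags in each, and 189 of the 292 peaks were at or above both values. At 16 peaks both RGFP966 + KLA libraries were at or above the medians of the peaks in all 3 sets. These 16 were the 6 of the highest mean level (the satellite assigned to Gm5458, Cdca2, a CpG island between genes assigned to Rpp21, 1110020A21Rik, Tmbim1 and a satellite near Pisd-ps3), B3glct and Junb, and 8 others that were listed after their values were seen. Those 8 were the promoters of Cd47, a surface signal that protects cells from phagocytosis, Prkar1b, Gna12, Cdkn2aip and Ngdn, an exon peak of Angptl6, a CpG island peak of Dennd4a and a second peak assigned to Pisd-ps3.

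At Cdca2 the levels were 349 and 487 normalised tags at Veh, 364 and 334 with KLA, and 341 and 484 with RGFP966 + KLA, so that all groups overlapped. At the Gm5458 satellite they were 744 and 776, then 545 and 891, then 489 and 525, with the RGFP966 + KLA values below the rest. The CpG island assigned to Rpp21, a subunit of RNase P, had 279 and 462, then 369 and 377, then 341 and 309, and the promoter of 1110020A21Rik had 364 and 306, then 267 and 334, then 385 and 324. Neither showed separate groups. Of the 16, 5 (31.2%) lay within 1 kb of another peak that did belong to the RGFP966 + KLA set, against 26 of the other 276 (9.42%). The gaps were 174 bp at Gm5458, 190 bp at 1110020A21Rik, 23 bp and 89 bp at the Pisd-ps3 peaks and 766 bp at Junb. Reads in satellite and other multicopy repeats can be split among copies, so the values at Gm5458 and Pisd-ps3 are uncertain. Over all 292 peaks, 31 (10.6%, 95% Wilson interval 7.58 to 14.7%) lay within 1 kb of a peak of that set, beside 8.34% of all WT peaks.

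Genes of 8 lists on macrophage biology were assigned 13 of the 292 peaks, of 330 WT peaks at such genes (3.94%), while the group makes up 3.01% of all WT peaks. Of the 13, 7 were within 2 kb of a TSS. By list, 3 of 52 peaks were at AP-1 and related bZIP genes, 2 of 49 at cytokine and chemokine genes and receptors, 2 of 32 at IRF, STAT and interferon-stimulated genes, 2 of 76 at macrophage lineage genes, 2 of 31 at lipid genes of LXR, PPAR and SREBP, 1 of 63 at TLR4, NF-kB and MAPK genes, 1 of 22 at genes of NCoR, HDAC3 and coregulator complexes and 0 of 5 at osteoclast genes. Against Veh, 2 of the 13 were lost (Mylip and Traf2) and 0 were gained, beside 2.99 and 6.89% of all WT peaks and 32 and 0 of the 292, and 0 of the 13 were called in the other comparisons, beside 0.103% lost and 0.237% gained against KLA and 1.73% and 3.3% for KLA against Veh.

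Among the promoters, Mylip is described above. The promoter of Traf2, an adaptor of TNF receptors, had 178 and 116 normalised tags at Veh, 74.9 and 111 with KLA, and 79.0 and 41.2 with RGFP966 + KLA, where the values overlapped with KLA but not with Veh. The promoter of Stat3 had 140 and 107, then 155 and 171, then 88.9 and 87.5. At Stat3 both RGFP966 + KLA libraries were below the rest, with a log2 fold change of -0.87 ± 0.31 (SE) against KLA that did not pass. The promoter of Stat2, which carries interferon signals, had 124 and 82.6, then 102 and 68.5, then 39.5 and 51.5, and its lowest values were again those of RGFP966 + KLA.

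The Nr1d1 intron had 163 and 132 normalised tags at Veh, 150 and 111 with KLA, and 69.1 and 103 with RGFP966 + KLA, the last pair being lowest without overlap. Junb, an AP-1 subunit, had its peak 1150 bp upstream, with 217 and 363, then 182 and 239.9, then 183 and 216, where the KLA values overlapped with both other groups.

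Distal peaks were assigned to Csf2ra, Maf, Ccl2, Il4ra, Creb1 and Itgb2. The site of Csf2ra, a subunit of the GM-CSF receptor, 38253 bp upstream, had 140 and 182 normalised tags at Veh, 123 and 171 with KLA, and 104 and 66.9 with RGFP966 + KLA. A site 56552 bp downstream of the TSS of the macrophage factor Maf had 132 and 149, then 144 and 163, then 74.1 and 92.7. Both sites were lowest with RGFP966 + KLA, and the Veh and KLA values overlapped. A site 28362 bp upstream of the monocyte chemokine Ccl2 had 132 and 149, then 128 and 128, then 109 and 46.3. Intron 1 of Itgb2, the β2 integrin chain, had 69.8 and 74.3, then 85.6 and 77.1, then 39.5 and 30.9, lowest with RGFP966 + KLA. At the site assigned to Creb1 all groups overlapped, with 85.3 and 107, then 96.2 and 77.1, then 114 and 87.5.

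Of these 13 genes, 9 had another WT peak in the RGFP966 + KLA set. The Ccl2 promoter peak 86 bp upstream was in all 3 sets, with 31 and 29 tags at Veh, 20 and 7 with KLA and 16 and 21 with RGFP966 + KLA. A Junb promoter peak 18 bp upstream was in the Veh and RGFP966 + KLA sets, with 10 and 12, then 13 and 8, then 27 and 11 tags. Over the whole group, 112 of 291 peaks (38.5%) had a gene that was also assigned to a peak of the RGFP966 + KLA set, 63 of 109 distal peaks and 49 of 182 promoter peaks. A gene without its member peak in that set could therefore still have had another open site there.

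**Figure D4:**
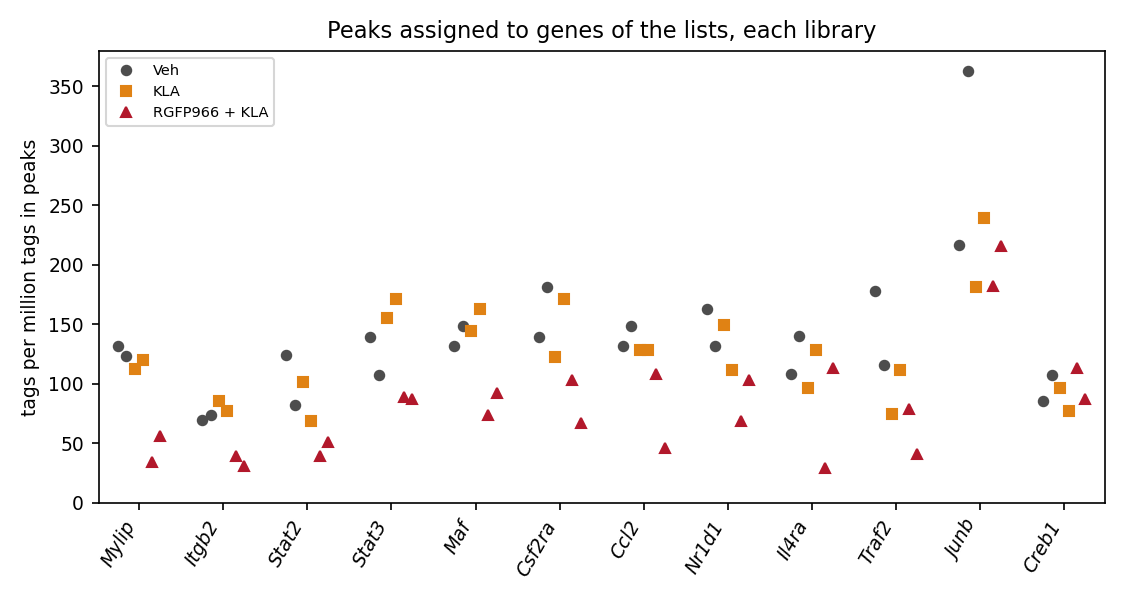
Normalised tags (tags per 1000000 tags in peaks) (y axis, linear) in each of the 6 WT libraries for 12 of the 13 peaks assigned to genes of the lists, ordered by the log2 fold change of RGFP966 + KLA against KLA. Each symbol is 1 library. RGFP966 + KLA values are lowest at Mylip, Itgb2, Stat2, Stat3, Maf, Csf2ra, Ccl2, and Nr1d1 and overlap with other groups at Il4ra, Traf2, Junb and Creb1.

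By position, 182 of 291 peaks with an assigned TSS (62.5%, 95% Wilson interval 56.9 to 67.9%) were promoter peaks, that is within 2 kb of the TSS. The share was 51.0% of all WT peaks and 70.3% of the peaks in all 3 sets, and both lie outside the interval. Peaks missing from the KLA set only had 56.9%, inside the interval at its lower limit. Those missing from the Veh set only had 44.2%, below it. The 109 distal peaks had a median distance of 19.1 kb. The annotation placed 157 at promoters, 63 in introns, 57 between genes, 5 in exons and 5 in UTRs, and 20 (6.85%) overlapped a repeat in the detailed annotation, of which 6 were LTR elements, 4 satellites and 4 SINEs. The 292 peaks were assigned to 285 genes. The median GC content of the central 200 bp was 60%, beside 56.5% over all WT peaks and 62.5% over the peaks in all 3 sets. It was 59.5% over peaks missing from the KLA set only and 53.5% over those missing from the Veh set only. Promoter and distal peaks had similar median log2 fold changes with RGFP966 + KLA, -0.55 and -0.61 against KLA and -0.68 and -0.71 against Veh.

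The NCoR f/f table held peaks of a separate experiment that the rule did not use, with library names that carry another date code. Of the 292 peaks, 290 (99.3%) overlapped a peak of that table by at least 1 bp, beside 95.1% of all WT peaks and 99.8% of the peaks in all 3 sets. The exceptions were an intergenic peak 6937 bp upstream of C3ar1, the receptor for complement C3a, and intron 1 of Sfi1. In the 2 NCoR f/f Veh libraries the counterparts had medians of 56.4 and 58.9 tags per 1000000 tags in peaks, from 21 and 30 tags, beside 77.9 and 80.4 for the peaks in all 3 sets and 51.0 and 53.0 for all WT peaks. Peaks missing from the KLA set only had medians of 56.4 and 58.9 as well. The median counterpart stood at the 83.7th percentile of the table, and the medians were 78.1 for all WT peaks and 92.5 for the peaks in all 3 sets. In its top 10% were 80 of the 290 (27.6%), beside 25.7% of all WT peaks with a counterpart, and below its middle were 15 (5.17%), beside 20.3%. Levels were not compared between the tables because the peaks and library sizes differ.

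Rapgef5 had 139.6 and 90.2 normalised tags in the NCoR f/f Veh libraries, Swap70 126 and 74.5, and Usp20 83.3 and 119.7. The Med14 promoter had 67.1 and 76.5, Mylip 67.1 and 58.9, and Tnfsf18 80.6 and 45.1. Stat3 had 96.7 and 109.9, and Junb 129 and 169. These stood between the 86.0th percentile of that table, at Tnfsf18, and the 99.1th, at Junb, so that Tnfsf18, Mylip and Med14 lay above the median of all WT peaks and below that of the peaks in all 3 sets. BC005537, with 34.9 and 45.1, stood at the 63.6th, and the B3glct promoter, with 24.2 and 37.3, at the 45.5th.

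That table also names 4 peak sets, at Veh and KLA in NCoR f/f BMDMs (NWT) and at Veh and KLA in BMDMs that lack NCoR through LysM-Cre, which acts in myeloid cells (NKO). Only the 2 NWT Veh libraries were analysed here, so the other sets are used as names alone. Counterparts of 271 of the 292 peaks (92.8%) were in the NWT Veh set and of 278 (95.2%) in the NWT KLA set, and 261 were in both. In the NKO Veh set there were 195 (66.8%, 95% Wilson interval 61.2 to 71.9%), and in the NKO KLA set 261 (89.4%). All WT peaks were in these sets at 78.3, 87.0, 56.5 and 80.6% in the same order, and the peaks in all 3 sets at 96.7, 97.6, 88.5 and 96.7%. Of the 261 in both NWT sets, 79 (30.3%) had no counterpart in the NKO Veh set and 12 (4.60%) had none in either NKO set, beside 29.4 and 5.29% of the 7034 WT peaks that were in both NWT sets. Peaks missing from the KLA set only were in the NKO Veh set at 72.5% (69.5 to 75.3%), an interval that overlaps that of the 292. The NKO Veh set had the lowest share in every class of WT peaks compared, so a lower share there was not particular to the 292.

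**Figure D5:**
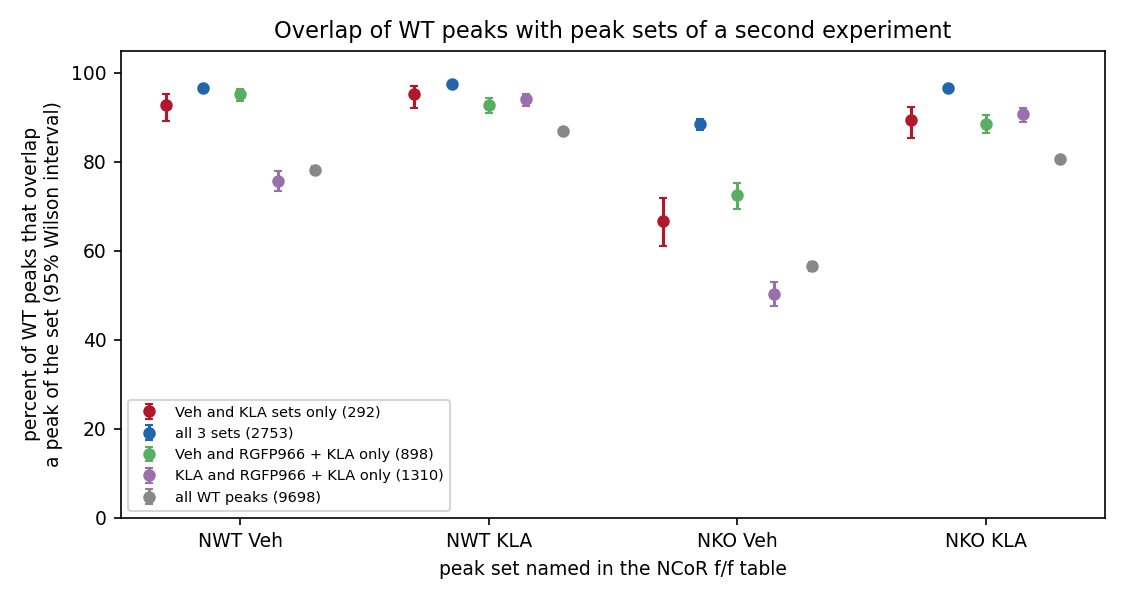
Percent of WT peaks that overlap a peak of each set named in the NCoR f/f table (y axis, from 0), by class of WT peaks, with 95% Wilson intervals as bars. The 292 peaks lie at 92.8, 95.2, 66.8 and 89.4%, between all WT peaks and the peaks in all 3 sets in each case.

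Motifs were searched as strings on both strands in the central 200 bp of 288 of the 292 peaks, those on assembled chromosomes, and a match is a description of the letters. The 14 motifs were AP-1 (TGACTCA), CRE (TGACGTCA), PU.1 (GAGGAAGT), promoter ETS (CCGGAAGT), IRF (GAAANNGAA), C/EBP (TTGCNNAA), NF-kB p65, NRF1 (GCGCANGCG), NF-Y (CCAAT), SP/KLF (GGGCGG), YY1 (AAGATGGCG), E-box (CACGTG), RUNX (AACCACA) and CTCF, and matches of different motifs may overlap. The promoter motifs were the most frequent, GGGCGG in 52.1% of the peaks and CCAAT in 33.3%, beside 40% and 33.3% of all WT peaks and 57.4% and 45% of the peaks in all 3 sets. Both are among the shortest strings searched, and short strings match more often, so shares of different motifs cannot be ranked against each other. The AP-1 motif was in 24 (8.33%, 95% Wilson interval 5.66 to 12.1%), beside 15.6% of all WT peaks and 9.0% of the peaks in all 3 sets. PU.1 was in 3.82% beside 7.49 and 5.57%, and NF-kB p65 in 3.12% beside 4.89 and 3.46%. C/EBP was in 11.5% (8.28 to 15.7%) beside 10.9 and 7.64%, and RUNX in 7.29% (4.82 to 10.9%) beside 6.36 and 3.84%.

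Among the 106 distal peaks with sequence, C/EBP matches were in 24 (22.6%, 15.7 to 31.5%), AP-1 in 19 (17.9%, 11.8 to 26.3%), RUNX in 13 (12.3%) and PU.1 in 7 (6.60%). All distal WT peaks held them at 16.3, 28.3, 10.5 and 12.1%, so that the AP-1 share of all distal peaks lay above the interval of this group, while the C/EBP share of all distal peaks lay within the interval. For the distal peaks in all 3 sets it was the other way, with an AP-1 share of 25.7% inside the interval and a C/EBP share of 15.0% below it. In the same 106 distal peaks, CCAAT was in 19 (17.9%) and GGGCGG in 15 (14.2%), beside 22.5 and 10.0% of all distal WT peaks. Of the 23 peaks with an NRF1 match all were promoters, and no YY1 match was found in the 288 (an upper limit of 1.32%). By motif, the median log2 fold change of RGFP966 + KLA against KLA was -0.71 for RUNX, -0.67 for IRF, -0.65 for AP-1 and for NF-kB p65, -0.58 for C/EBP, -0.54 for PU.1, -0.46 for NRF1 and -0.44 for the E-box. Against Veh the order differed, with -0.84 for RUNX, -0.78 for NF-kB p65, -0.72 for C/EBP, IRF and the E-box, and -0.66 for AP-1, PU.1 and NRF1. These medians rest on 9 to 33 peaks each and were not tested.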

How the data were processed

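ATAC-seq libraries of mouse BMDMs were analysed from the deposited tables of merged peaks. The authors aligned reads with Bowtie2 (mm10), used HOMER to call peaks, kept peaks reproducible between 2 libraries of a condition by IDR, merged the sets of the conditions, and deposited for every merged peak the raw tag count per library, not normalized, with at most 3 tags per position per the file headers. The deposited peak score, which after merging spans 540 to 1000 over the WT table and 544.5 to 1000 here, was used only to describe the peaks.

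The 292 peaks were found by their set names. The peaks, gene lists, motifs and tests were chosen with earlier results of these data known. Groups follow the sample titles. The 6 WT libraries were fitted in 1 model by the quasi-likelihood test of edgeR 4.0.16 (R 4.3.3) without covariates, after the filter of the study's methods on peaks that never reach 4 tags (which all 9698 passed), with the total tags in peaks as library sizes, as in the study's methods. A lost or gained peak had a p-value under 0.05 after Benjamini-Hochberg adjustment over all peaks and a change over 2-fold. The test was first run on simulated counts. Wilson intervals (95%) are on shares of peaks and take the peaks as independent.

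Peaks were named by a rule: the 6 of highest mean level, among the 252 with a mean of at least 12 tags the 6 lowest and 4 highest for RGFP966 + KLA against KLA and the 3 lowest and 3 highest for KLA against Veh, the 12 called peaks of smallest p, and peaks assigned to genes of the lists, and exceptions are stated. Sequence was read from mm10 with samtools 1.23.1 for 9527 WT peaks. Alternatives were TMM factors, all tags as library sizes, loess and GC offsets, DESeq2 1.42.0 (size factors of its own, or from the tags in peaks), filters of 0 or 16 tags, a fit to 4 libraries, a replicate block, a threshold of 1.5-fold, and each library left out. Each NCoR f/f library alone was added after the data were seen. Other steps used Python 3.11.15 with pandas 2.3.3 and numpy 2.4.6. The values of 1 listed peak are not reported here.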

Additional observations from a re-analysis of the deposited data

How the results depend on the processing

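For RGFP966 + KLA against KLA, edgeR called 1 of the 292 peaks, and 2 with TMM factors, GC offsets, the filter of 16 tags or only the 4 libraries. It called 0 with all tags as library sizes and with DESeq2 under its own size factors or those from the tags in peaks, and 0 to 2 with 1 library left out. Without 1 Veh library there were 2. Med14 was lost from the calls when either KLA or either RGFP966 + KLA library was left out. The median log2 fold change of -0.56 was -0.39 with all tags and -0.51 with loess offsets, and ran from -0.59 to -0.52 with 1 library left out. For RGFP966 + KLA against Veh, the 32 calls became 8 with all tags and 0 with DESeq2 under either choice of size factors, and 5 to 33 with 1 library left out. They were 22 to 39 with the other alternatives. The median of -0.70 was -0.75 with TMM factors, -0.61 with all tags, -0.59 with loess offsets and -0.76 with DESeq2 and its own size factors. For KLA against Veh, 0 peaks were called throughout, and the median of -0.16 was -0.23 with all tags and ran from -0.19 to -0.10 with 1 library left out. No alternative turned the sign of these medians. Calls over all WT peaks under the alternatives are not given, so the changes in the calls cannot be set against those of all peaks. The ratio of the median level with RGFP966 + KLA to that with KLA moved to 0.758 with all tags. Of the shares, that with a counterpart in the NCoR f/f table was 93.8% at 50% overlap of both peaks, that near a peak of the RGFP966 + KLA set was 6.85% within 500 bp and 24.7% within 10 kb, and that with at least 1 of the 14 motifs (87.5%) was 72.9% in 100 bp, 91.7% in whole peaks, 77.4% at distal and 93.4% at promoter peaks. Among 1965 refitted values of named peaks, 67 lost and 15 gained a call and 0 reversed. Most of the 1965 values had no call to lose in the main fit. The 67 are therefore a larger share of the values that had a call, and they do not show that the calls were stable.

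The replicate differences of the conditions correlated at 0.0351, 0.0212 and 0.0221 over peaks. Over all WT peaks, the chi-square value per peak was 1.07 at Veh, 1.08 with KLA and 0.947 with RGFP966 + KLA. These differences were thus mostly counting error, so the correlations cannot show whether libraries of the same replicate number share an origin. With the replicate number as a block, the calls numbered 2 for RGFP966 + KLA against KLA, 36 against Veh and 0 for KLA against Veh. The median peak of the group had 12 to 19 tags in a library.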
